A study of Arabidopsis thaliana with 12 samples.

Results

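The difference between npf8.4-1 and Col-0 in their leaf response to nitrogen depletion was computed from all 12 of the 12 libraries of the study. It is the change in npf8.4-1 (day 2 minus day 0) minus the change in Col-0 (day 2 minus day 0), on the log2 scale, and it is called the interaction below. A positive interaction means that the transcript moved further up, or less far down, in npf8.4-1 than in Col-0. The 4 groups had 3 libraries each. They were npf8.4-1 at day 2, npf8.4-1 at day 0, Col-0 at day 2 and Col-0 at day 0. Col-0 is the common reference accession of Arabidopsis thaliana, and npf8.4-1 is 1 mutant line of the gene NPF8.4, whose mutation site no source used here gives. All plants grew in hydroponics on 5 mM KNO3 for 15 days under 16 h of light and 8 h of dark at 23 °C. Day 0 plants were sampled then, and day 2 plants after another 2 days on medium without nitrogen, so depletion and 2 days of age were measured together in both genotypes. Each library came from young leaves pooled from 15 plants, and the replicates are labelled as biological.

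NPF8.4, also called PTR4, belongs to the branch of the nitrate and peptide transporter family that is best known for carrying short peptides. In Arabidopsis it sits in the membrane of the vacuole and is known to move glycerate, an intermediate of photorespiration, into the vacuole when nitrogen is short. Nitrate is both a nutrient and a signal in leaves: it holds up the transcripts of nitrate reductase and of regulators such as BT2, which decline when nitrate runs out, while transcripts of high-affinity uptake, amino acid recycling and autophagy rise.

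The libraries held 28761674 to 34282716 exon reads, and levels are given as CPM, counts per 1000000 reads of a TMM-scaled total. Leaf mesophyll markers summed to 32003 to 40439 CPM, root markers to 34.9 to 43.7 CPM and meristem and flower markers to 2.84 to 7.08 CPM. Of 11 root and 12 meristem and flower markers, PLT1, PLT2, RHD6, EXP7, STM, WUS and LFY were at 0 reads in every library. Others were not: 5 root and 3 meristem and flower markers had enough reads to be tested. Of those 3, 2 rose in npf8.4-1 and 2 in Col-0. Vascular markers summed to 999 to 1169 CPM in npf8.4-1 at day 2, 444 to 549 CPM in npf8.4-1 at day 0, 968 to 1146 CPM in Col-0 at day 2 and 510 to 596 CPM in Col-0 at day 0. Their part in the results was not tested, and in bulk leaves fewer cells of a type and less RNA per cell cannot be told apart. The third day 2 library of both genotypes stood nearest to the day 0 libraries on the first principal component, which held 75.6% of the variance.

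NPF8.4 itself (AT2G02020; TAIR10 chromosome 2, 478977 to 481185, + strand) checked the genotype labels in every library. It had 0.632, 1.32 and 0.659 CPM in npf8.4-1 at day 2 and 0.795, 0.337 and 0.346 CPM in npf8.4-1 at day 0, against 18.2, 14.6 and 12.6 CPM in Col-0 at day 2 and 7.91, 7.02 and 5.2 CPM in Col-0 at day 0. Every npf8.4-1 library lay below every Col-0 library. The log2 change with depletion in npf8.4-1, 0.81, rested on 10 to 47 reads a library and did not pass (adjusted p = 0.101), while the gene rose by 1.17 in Col-0 (adjusted p = 0.00176). The interaction of NPF8.4 was -0.37 (SE 0.49, 95% interval -1.44 to 0.71).

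Most of the depletion response was shared by the genotypes, and no single gene passed the test for a genotype difference in it. With edgeR's quasi-likelihood test and Benjamini-Hochberg adjustment, 12444 of 19416 tested genes changed with depletion in npf8.4-1 (64.1%; 6303 rose, 32.5%, and 6141 fell, 31.6%), and 11659 changed in Col-0 (60%; 5753 rose, 29.6%, and 5906 fell, 30.4%). Of the tested genes, 10115 passed in both genotypes with the same direction (52.1%), 2304 passed in npf8.4-1 only, 1519 passed in Col-0 only and 25 passed in both with opposite directions. The interaction had 0 genes at an adjusted p under 0.05 (0%), with a smallest adjusted p of 0.17. At an unadjusted p under 0.05 there were 1759 genes (9.06%), 927 of them positive and 832 negative. The DESeq2 test on the same counts called 269 genes, 56 positive and 213 negative, all of which were among the 1759. At the single days the genotypes differed in 279 genes at day 2 (1.44%), of which 94 were higher (0.484%) and 185 lower (0.953%) in npf8.4-1, and 29 at day 0 (0.149%), of which 6 were higher (0.0309%) and 23 lower (0.118%). A call in one genotype and none in the other is no test of a difference: of the 2304 genes called in npf8.4-1 only, 2039 had the same sign in Col-0 and 534 had an unadjusted interaction p under 0.05, and of the 1519 called in Col-0 only, 1265 had the same sign in npf8.4-1 and 416 were under 0.05.

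Equal responses were read from the width of the interval rather than from a missed threshold. A response was called equal where the 95% interval of the interaction lay wholly within 1.5-fold in either direction, and 9026 of the 19416 tested genes (46.5%) met that. Among the 10115 genes that changed alike in both genotypes, 5246 did. None of the 25 genes called in opposite directions did. The count followed the width of the interval: at under 1 CPM the interval reached a median of 1.44 log2 units to either side and 0 of 1950 genes could be called equal, whereas between 20 and 100 CPM it reached 0.29 and 74.8% of 6442 genes were equal. At 100 CPM and above it reached 0.35 and 63.6% of 1730 genes were equal.

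**Figure D1:**
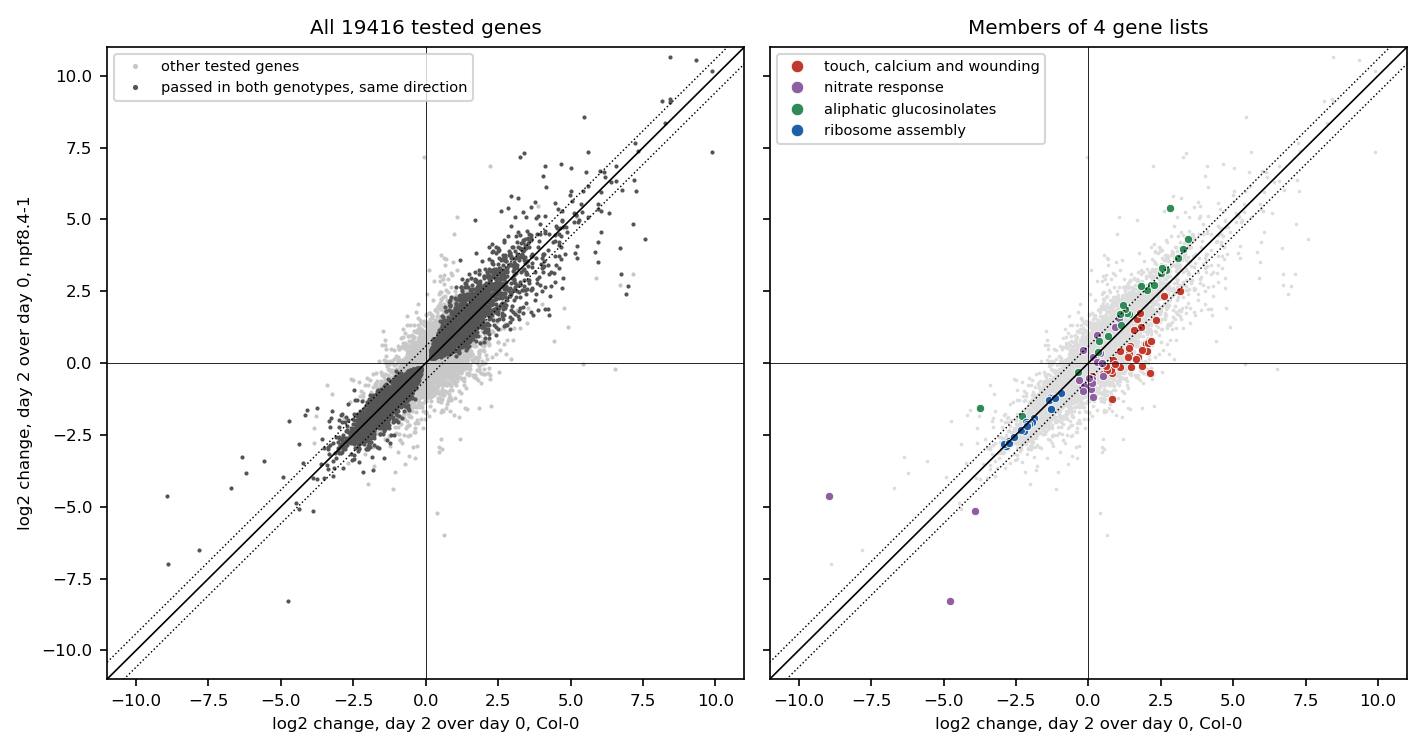
Each point is a gene, with its fitted log2 change under depletion in Col-0 on the x axis and in npf8.4-1 on the y axis; the solid line marks equal responses and the dotted lines 1.5-fold differences. The left panel shows the 19416 tested genes, with genes that passed in both genotypes dark, and they follow the solid line; the right panel shows 4 gene lists, of which the touch list lies below the line in all 33 members and the aliphatic glucosinolate list above it in all 26.

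Where both genotypes responded, the response was more often the larger one in npf8.4-1. Of the 10115 genes that changed alike, 68.0% had the larger absolute change in npf8.4-1, 70.7% of the rises and 65.6% of the falls, and the median absolute log2 change was 0.92 in npf8.4-1 and 0.83 in Col-0. Single libraries moved this share: it was 76.0% without npf8.4-1 day 2 replicate 3, 74.7% without npf8.4-1 day 0 replicate 1, 63.6% without Col-0 day 2 replicate 2, 62.8% without Col-0 day 0 replicate 1 and 62.2% without Col-0 day 2 replicate 3. It was 71.8% with replicate 3 of day 2 left out in both genotypes. These genes are not independent of each other, and no test was made of the share.

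The 1759 genes under an unadjusted p of 0.05, none of which passed the adjusted threshold, fell into 6 kinds. The most frequent was a larger rise in npf8.4-1, with 598 genes whose median log2 change was 1.21 in npf8.4-1 and 0.55 in Col-0. Next came 395 genes with opposite signs that were lower at day 2 in npf8.4-1 and higher at day 2 in Col-0, with medians of -0.38 in npf8.4-1 and 0.50 in Col-0. A smaller rise in npf8.4-1 was seen for 246 genes (medians 0.35 in npf8.4-1 and 1.18 in Col-0), opposite signs with the higher day 2 level in npf8.4-1 for 225 genes (0.33 in npf8.4-1 and -0.22 in Col-0), a larger fall for 191 genes (-1.17 in npf8.4-1 and -0.40 in Col-0) and a smaller fall for 104 genes (-0.29 in npf8.4-1 and -0.86 in Col-0). The 269 genes that DESeq2 called were divided otherwise: 143 had opposite signs with the lower day 2 level in npf8.4-1, 52 a smaller rise, 35 a larger rise, 19 opposite signs with the higher day 2 level in npf8.4-1, 18 a larger fall and 2 a smaller fall.

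The 20 genes with the smallest unadjusted p, 1.13e-05 to 0.000227, had adjusted p-values of 0.17 to 0.188 and so did not pass. For 17 of them the interaction was negative. The signs of the fitted responses differed between the genotypes in 16 of the 20, and at day 2 the libraries of the genotypes did not overlap in 18. DESeq2 called all 20. The 20 were picked by their interaction p in these same libraries, so these counts follow largely from that choice and are no support. The share of all tested genes without overlap at day 2 was not computed.

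AT5G25170, annotated as a PPPDE thiol peptidase family protein (chromosome 5, 8693012 to 8695095, + strand), had the smallest p. It had 7.36, 7.42 and 6.11 CPM in npf8.4-1 at day 2 and 8.65, 9.11 and 10 CPM in npf8.4-1 at day 0, against 12.4, 14.7 and 15.5 CPM in Col-0 at day 2 and 7.53, 8.79 and 8.49 CPM in Col-0 at day 0. The day 0 groups overlapped, the day 2 groups did not, and the transcript fell in npf8.4-1 by 0.41 and rose in Col-0 by 0.78 on the log2 scale. Its interaction was -1.19 (SE 0.17, 95% interval -1.56 to -0.82), with an adjusted p of 0.17 in edgeR.

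CPK4 (AT4G09570; chromosome 4, 6049441 to 6052380, + strand) and CPK28 (AT5G66210) encode calcium-dependent protein kinases, which read calcium signals. CPK4 had 27.4, 23.6 and 30.2 CPM in npf8.4-1 at day 2 and 35.9, 27.4 and 35.3 CPM in npf8.4-1 at day 0, against 43.1, 52.7 and 45.2 CPM in Col-0 at day 2 and 27.8, 27.9 and 25.2 CPM in Col-0 at day 0. It was at -0.28 in npf8.4-1, where the days overlapped and the test was not passed, and rose by 0.80 in Col-0 (interaction -1.08, SE 0.17). CPK28 had 82.2, 52.2 and 54.5 CPM in npf8.4-1 at day 2 and 99.5, 58.9 and 94.4 CPM in npf8.4-1 at day 0, against 148, 171 and 153 CPM in Col-0 at day 2 and 59, 62.4 and 32.9 CPM in Col-0 at day 0. Its Col-0 day 2 libraries stood above those of the other 3 groups, and the interaction was -2.04, with -0.42 in npf8.4-1, which did not pass, and a rise of 1.62 in Col-0.

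AAP5 (AT1G44100; chromosome 1, 16764392 to 16767685, - strand), an amino acid permease, rose in both genotypes, with the smaller fitted rise in npf8.4-1. Its level was 21.2, 17.5 and 17.7 CPM in npf8.4-1 at day 2 and 11.6, 9.99 and 12.5 CPM in npf8.4-1 at day 0, against 25.9, 34.4 and 35.7 CPM in Col-0 at day 2 and 7.75, 9.3 and 6.55 CPM in Col-0 at day 0. No group overlapped another, and npf8.4-1 lay above Col-0 at day 0 and below it at day 2. The rise was 0.73 in npf8.4-1 and 2.02 in Col-0 (interaction -1.30, SE 0.22).

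AT1G25550 (chromosome 1, 8976326 to 8978305, + strand), annotated as a myb-like transcription factor and named HHO3 in the gene lists, moved in npf8.4-1. It had 42.4, 26.4 and 30.9 CPM in npf8.4-1 at day 2 and 80.8, 65.5 and 78.8 CPM in npf8.4-1 at day 0, against 142, 102 and 135 CPM in Col-0 at day 2 and 117, 125 and 97.2 CPM in Col-0 at day 0. Every npf8.4-1 library was below every Col-0 library, and the Col-0 days overlapped. The fall was 1.17 on the log2 scale in npf8.4-1, the value in Col-0 was 0.16 and did not pass, and the interaction was -1.33 (SE 0.25, 95% interval -1.87 to -0.79).

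AT5G41100, a hydroxyproline-rich glycoprotein family gene, also moved in npf8.4-1, with 13.4, 9.67 and 11.5 CPM in npf8.4-1 at day 2 and 23, 18.5 and 22.5 CPM in npf8.4-1 at day 0, against 21.3, 19.5 and 19.2 CPM in Col-0 at day 2 and 18.5, 18.9 and 15.7 CPM in Col-0 at day 0. Its genotypes overlapped at day 0 and did not at day 2. The transcript fell in npf8.4-1 by 0.89 and was at 0.18 in Col-0, which did not pass (interaction -1.07). The bHLH gene AT5G50915 fell in both genotypes, with the larger fitted fall in npf8.4-1. Its level was 7.39, 6.08 and 8.06 CPM in npf8.4-1 at day 2 and 43.3, 36.8 and 41.4 CPM in npf8.4-1 at day 0, against 8.65, 13 and 15.4 CPM in Col-0 at day 2 and 29.2, 26.6 and 22.8 CPM in Col-0 at day 0. The falls were 2.5 in npf8.4-1 and 1.09 in Col-0 on the log2 scale (interaction -1.41).

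The 3 positive genes of the 20 were AT5G57887, AT1G15260 and AT5G14360. AT1G15260 had 33.8, 32.9 and 30.3 CPM in npf8.4-1 at day 2 and 24.6, 23 and 20.2 CPM in npf8.4-1 at day 0, against 24.5, 23.1 and 22.7 CPM in Col-0 at day 2 and 24.6, 26.5 and 26.6 CPM in Col-0 at day 0. Only its npf8.4-1 day 2 libraries stood above the others: it rose by 0.52 in npf8.4-1 and was at -0.14 in Col-0, which did not pass (interaction 0.66, SE 0.12). AT5G57887 had 11.3, 11.1 and 11.1 CPM in npf8.4-1 at day 2 and 8.97, 8.27 and 7.47 CPM in npf8.4-1 at day 0, against 8.97, 9.22 and 7.42 CPM in Col-0 at day 2 and 13.2, 12.5 and 11.2 CPM in Col-0 at day 0. The transcript rose in npf8.4-1 and fell in Col-0 (log2 changes 0.44 in npf8.4-1 and -0.52 in Col-0, interaction 0.96). AT5G14360, a ubiquitin-like superfamily gene, had an interaction of 1.96.

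Of the remaining genes among the 20, all negative, the leucine-rich repeat kinase AT1G53430 fell in npf8.4-1 and rose in Col-0 (log2 changes -0.34 in npf8.4-1 and 0.43 in Col-0). AT1G63820, a CCT motif gene, was at 0.32 in npf8.4-1, which did not pass, and rose by 2.77 in Col-0. PUB17, a U-box ubiquitin ligase of immune signalling, was at -0.11 in npf8.4-1, which did not pass, and rose by 0.66 in Col-0. Likewise CNGC1, a cyclic nucleotide gated channel, was at -0.05 in npf8.4-1 and rose by 0.83 in Col-0, and the GRAS family gene AT1G07520 was at -0.39 in npf8.4-1 and rose by 0.95 in Col-0. ATPMEPCRB, a pectin methylesterase of the cell wall, was at -0.50 in npf8.4-1 and rose by 1.65 in Col-0. AT2G19710 was at -0.06 in npf8.4-1 and rose by 1.23 in Col-0. In the npf8.4-1 comparison none of CNGC1, AT1G07520, ATPMEPCRB and AT2G19710 passed. The reverse held for AT5G13100, which fell by 0.66 in npf8.4-1 and was at 0.16 in Col-0, and for AT1G68580, which fell by 0.71 in npf8.4-1 and was at 0.05 in Col-0. AT5G46520, an immune receptor gene of the TIR-NBS-LRR class, had log2 changes of 0.25 in npf8.4-1 and 1.04 in Col-0.

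**Figure D2:**
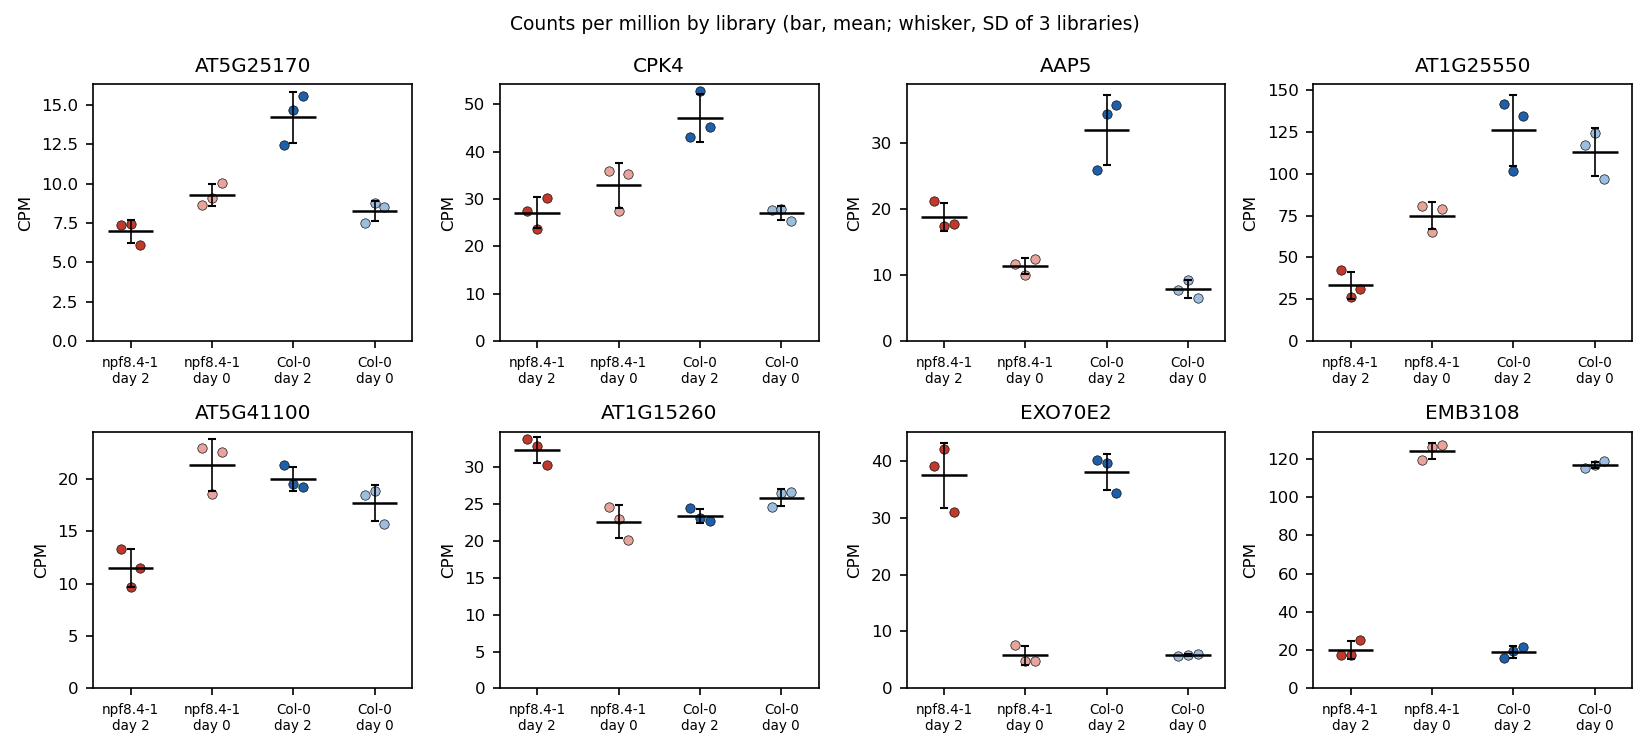
CPM of 8 genes in each of the 12 libraries, with the mean and SD of the 3 libraries of a group. AT5G25170, CPK4 and AAP5 are highest in Col-0 at day 2, AT1G25550 and AT5G41100 are lowest in npf8.4-1 at day 2, AT1G15260 is highest in npf8.4-1 at day 2, and EXO70E2 and EMB3108 move alike in both genotypes.

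The touch, calcium and wounding list, whose genes respond within minutes to handling, calcium signals or injury, had a negative interaction in all 33 tested members. The fitted change was positive in 21 and negative in 12 in npf8.4-1, while it was positive in all 33 in Col-0. The median interaction was -1.03 against 0.02 over all tested genes, and 21 had an unadjusted p under 0.05, but 0 passed the adjusted threshold. In npf8.4-1, 8 of the 33 members rose and 2 fell with depletion, and in Col-0, 30 rose and 0 fell. Of all tested genes, 32.5% rose and 31.6% fell in npf8.4-1, and 29.6% rose and 30.4% fell in Col-0. In npf8.4-1 the list thus rose no more often than tested genes at large. These shares, and the 9.06% under an unadjusted interaction p of 0.05, are the background for the counts of every list below. The mean level of the list was 6.06, 5.60 and 5.45 log2 CPM in npf8.4-1 at day 2 and 5.34, 4.95 and 5.54 log2 CPM in npf8.4-1 at day 0, against 6.65, 6.54 and 6.15 log2 CPM in Col-0 at day 2 and 5.27, 5.22 and 4.32 log2 CPM in Col-0 at day 0. The npf8.4-1 days overlapped and the Col-0 days did not, and Col-0 day 0 replicate 3 was the lowest library. Without that library the median was -0.79, and the number under 0.05 ran from 13 without npf8.4-1 day 2 replicate 3 to 25 without Col-0 day 0 replicate 1. WRKY11, a transcription factor of defence, was at 0.10 in npf8.4-1, which did not pass, and rose by 0.84 in Col-0. The same held for PUB23, a ubiquitin ligase, at -0.02 in npf8.4-1 with a rise of 0.92 in Col-0, and for NHL3 at -0.24 in npf8.4-1 with a rise of 0.66 in Col-0.

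The promoters of the DESeq2 genes were read for the W box, the motif bound by WRKY factors (TTGACC or TTGACT, both strands). None of these genes passed the edgeR interaction test, and the promoter sets were chosen after their values were seen. In the 250 bases before the annotated start, a W box stood in 43.2% of the 213 genes that DESeq2 called negative, 30.4% of the 56 called positive and 27.8% of 19347 tested nuclear genes. It stood in 48.5% of the 33 touch genes, 36.4% of the 22 auxin response genes and 31.8% of the 22 salicylate hub genes. The share was 26.9% of the 26 aliphatic glucosinolate genes, 17.4% of the 23 nitrate response genes and 12.8% of the 39 photosystem genes. Of the 20 genes with the smallest unadjusted p, 9 held a W box. The CGCGTT core of calmodulin-binding activators was in 7.04% of the negative genes and 2.9% of all. A match is a description of these letters and was not tested. The promoters of 3 of the 20 genes are shown because their W boxes, in capitals, differ in number: PUB17 and CPK28 hold 1 each and AT5G41100 holds 4. No W box overlaps another in these promoters, and GGTCAA or AGTCAA is a W box on the opposite strand. The sequences are from the RefSeq genome of the TAIR10 build, written 5′ to 3′ on the strand of the gene: AT5G41100 chr5:16446935-16447184 (+), PUB17 chr1:10263793-10264042 (+) and CPK28 chr5:26459655-26459904 (-).
AT5G41100: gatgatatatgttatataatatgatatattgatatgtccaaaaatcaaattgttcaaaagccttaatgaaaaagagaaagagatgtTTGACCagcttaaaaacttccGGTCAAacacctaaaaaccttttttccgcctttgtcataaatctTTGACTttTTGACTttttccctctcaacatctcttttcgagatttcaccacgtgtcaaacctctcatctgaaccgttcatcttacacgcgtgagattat
PUB17: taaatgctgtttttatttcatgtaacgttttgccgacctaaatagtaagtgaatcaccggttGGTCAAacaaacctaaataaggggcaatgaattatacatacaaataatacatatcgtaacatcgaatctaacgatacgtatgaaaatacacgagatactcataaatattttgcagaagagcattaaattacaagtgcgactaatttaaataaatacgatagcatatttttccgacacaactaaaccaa
CPK28: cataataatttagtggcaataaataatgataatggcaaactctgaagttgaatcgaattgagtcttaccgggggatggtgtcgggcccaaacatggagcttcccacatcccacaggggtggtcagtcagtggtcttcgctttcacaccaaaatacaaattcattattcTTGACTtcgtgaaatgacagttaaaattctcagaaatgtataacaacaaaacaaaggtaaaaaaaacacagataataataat

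The salicylate hub list, of genes that make salicylic acid or relay its immune signal, had mostly rises in both genotypes, with smaller fitted values in npf8.4-1. Of 22 tested members, 15 rose in npf8.4-1 and 21 rose in Col-0, against 32.5% and 29.6% of all tested genes. The interaction was negative in 19 and had a median of -0.47, 12 were under an unadjusted p of 0.05 and 0 passed. PAD4, a lipase-like protein of immune signalling, had 21.9, 18.6 and 15.7 CPM in npf8.4-1 at day 2 and 9.19, 7.83 and 7.85 CPM in npf8.4-1 at day 0, against 42.2, 43.5 and 28.4 CPM in Col-0 at day 2 and 6.77, 8.66 and 4.76 CPM in Col-0 at day 0. The day 0 groups overlapped and the day 2 groups did not: PAD4 rose by 1.18 in npf8.4-1 and 2.5 in Col-0, with an interaction of -1.32 (SE 0.30). SAG101, a partner of PAD4 and EDS1, rose by 0.39 in npf8.4-1 and 1.15 in Col-0. In the list of salicylate response genes, which act further down, 16 of 20 rose in npf8.4-1 and 18 of 20 in Col-0, with a median interaction of -0.65 and 4 under an unadjusted p of 0.05 (7 without npf8.4-1 day 0 replicate 2). Among its members, WRKY54, a transcription factor induced by salicylate, rose by 2.62 in npf8.4-1 and 3.66 in Col-0. NIMIN1, which binds the salicylate receptor NPR1, rose by 1.70 in npf8.4-1 and 3.07 in Col-0. LURP1, a defence gene of the same list, had an interaction of -2.54 with an SE of 1.29, which was -0.82 without npf8.4-1 day 0 replicate 1. The median of that list ran from -0.95 without Col-0 day 0 replicate 1 to -0.26 without npf8.4-1 day 0 replicate 1. Among 28 jasmonate genes 15 rose in npf8.4-1 and 20 in Col-0, against 32.5% and 29.6% of all tested genes. The median interaction of -0.35 was -0.02 without npf8.4-1 day 0 replicate 1. The 15 rises were 8 without npf8.4-1 day 0 replicate 2.

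Nitrate response genes mostly had a negative interaction, with 16 negative and 7 positive of 23 tested members. Of the 23, 5 rose and 13 fell in npf8.4-1, whereas 5 rose and 4 fell in Col-0. Of all tested genes, 31.6% fell in npf8.4-1 and 30.4% in Col-0. The 13 falls ran from 9 without npf8.4-1 day 0 replicate 2 to 14 without Col-0 day 2 replicate 2. A comparison of such calls is no test of a difference. The median interaction was -0.48, 10 members were negative and 1 positive at an unadjusted p under 0.05, and 0 passed. At day 2, 12 of the 23 were lower in npf8.4-1 than in Col-0, where 0.953% of all tested genes were lower. That count moved with single libraries: it was 7 without Col-0 day 2 replicate 3 or npf8.4-1 day 2 replicate 1, 8 without Col-0 day 2 replicate 1, 5 without npf8.4-1 day 2 replicate 3 and 2 without npf8.4-1 day 2 replicate 2, when 29 genes in all passed at day 2 in place of 279. The mean level of the list was 3.75, 3.57 and 3.66 log2 CPM in npf8.4-1 at day 2 and 4.54, 4.46 and 4.37 log2 CPM in npf8.4-1 at day 0, against 4.8, 4.28 and 4.53 log2 CPM in Col-0 at day 2 and 5.1, 5.13 and 4.83 log2 CPM in Col-0 at day 0. The npf8.4-1 day 2 libraries were below those of the other groups, and at day 0 the npf8.4-1 libraries were also below those of Col-0. At day 0, 22 of the 23 members had a negative fitted genotype difference. Of the 23, 13 were under an unadjusted p of 0.05 (8 to 15 without 1 library) and 1 passed. The median genotype difference was -0.57 at day 2 and -0.39 at day 0.

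Within that list, the nitrate reductase gene NIA2 (AT1G37130) had 385, 281 and 315 CPM in npf8.4-1 at day 2 and 600, 667 and 550 CPM in npf8.4-1 at day 0, against 909, 579 and 796 CPM in Col-0 at day 2 and 779, 790 and 559 CPM in Col-0 at day 0. It fell by 0.89 in npf8.4-1, where the days did not overlap, and was at 0.10 in Col-0, where they did (interaction -0.99, SE 0.26). NIA1, the other nitrate reductase gene, and NIR1, the nitrite reductase gene that acts after it, had log2 changes of -0.81 and -0.56 in npf8.4-1 and -0.11 and 0.14 in Col-0, and only the npf8.4-1 values passed. Those npf8.4-1 calls were lost without npf8.4-1 day 0 replicate 2 (NIA1 -0.65, NIR1 -0.46) and without npf8.4-1 day 2 replicate 2 (NIA1 -0.73, NIR1 -0.49), and for NIA1 also without both day 2 libraries numbered 3 (-0.83). BT2, a nitrate-induced scaffold protein, had 1, 0 and 3 reads in npf8.4-1 at day 2 and 380, 302 and 490 reads in npf8.4-1 at day 0, against 98, 73 and 128 reads in Col-0 at day 2 and 3295, 3652 and 1832 reads in Col-0 at day 0. It fell in both genotypes and was lower in npf8.4-1 at both days (log2 differences of -6.29 at day 2 and -2.78 at day 0). The day 0 call was lost without npf8.4-1 day 0 replicate 1 (-2.73) or replicate 2 (-2.64), and the day 2 call without both day 2 libraries numbered 3 (-7.23). Its fitted interaction of -3.51 (95% interval -5.82 to -1.19, adjusted p = 0.317) rests on the few reads at day 2 and depends on the prior count. The uptake gene NRT2.5, a nitrate transporter of starved plants, had an interaction of -0.23 with an SE of 1.52, and CLC-A, which loads nitrate into the vacuole, had 0.25. Of the ammonium transporters, AMT1;1 rose by 0.88 in npf8.4-1 and 1.53 in Col-0, and AMT2 fell by 0.45 in npf8.4-1 and was at 0.20 in Col-0, which did not pass.

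**Figure D3:**
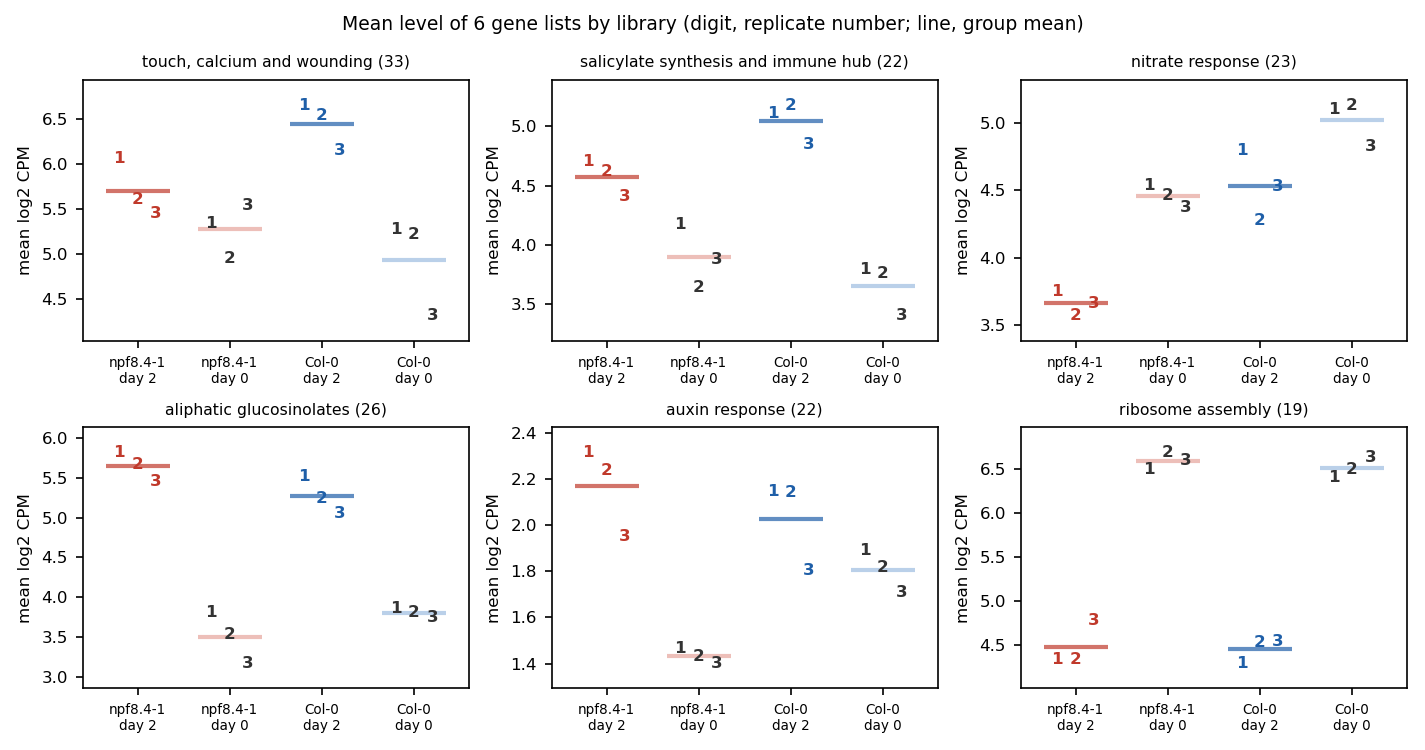
Mean log2 CPM of 6 gene lists in each library, by group, with the digit giving the replicate number. The touch list is highest in Col-0 at day 2 (6.15 to 6.65), the nitrate response list lowest in npf8.4-1 at day 2 (3.57 to 3.75), and the ribosome assembly list moves alike in both genotypes.

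The aliphatic glucosinolate list, which covers the synthesis of methionine-derived defence compounds of the cabbage family, had a positive interaction in all 26 tested members, which was a larger positive fitted change in 23 and a smaller negative one in 3. The median was 0.59, and 15 were under an unadjusted p of 0.05, with 0 passing. In npf8.4-1, 23 rose and 3 fell, and in Col-0, 23 rose and 3 fell. The mean level was 5.82, 5.67 and 5.46 log2 CPM in npf8.4-1 at day 2 and 3.81, 3.53 and 3.17 log2 CPM in npf8.4-1 at day 0, against 5.51, 5.24 and 5.05 log2 CPM in Col-0 at day 2 and 3.86, 3.81 and 3.74 log2 CPM in Col-0 at day 0. The genotypes overlapped at both days. Leaving out 1 library at a time moved the median between 0.41, without npf8.4-1 day 0 replicate 3, and 0.79, without Col-0 day 2 replicate 1, and the number under 0.05 between 8, without Col-0 day 2 replicate 3, and 21, without Col-0 day 2 replicate 1. SOT18, a sulfotransferase of the last step of the core pathway, rose by 1.90 in npf8.4-1 and 1.26 in Col-0, with a day 2 difference between the genotypes of 0.58. FMOGS-OX3, which oxidises the side chain, rose by 3.3 in npf8.4-1 and 2.54 in Col-0. IPMI2, of the side chain elongation cycle, rose by 2.7 in npf8.4-1 and 2.18 in Col-0. MYB29, a regulator of the pathway, rose by 2.03 in npf8.4-1 and 1.21 in Col-0.

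Sulfur starvation genes, which are induced when sulfate is short, had a positive interaction in 14 of 15 tested members, with a median of 0.61. The fitted change was positive in 5 and negative in 10 in npf8.4-1, and positive in 2 and negative in 13 in Col-0. In npf8.4-1, 1 rose and 7 fell, while 2 rose and 10 fell in Col-0. An unadjusted p under 0.05 was seen in 5 members, and 0 passed. That 5 was 2 without npf8.4-1 day 2 replicate 1 and 10 without Col-0 day 2 replicate 1. SERAT3;2, a serine acetyltransferase of cysteine synthesis, fell by 1.43 in npf8.4-1 and 2.69 in Col-0. SDI1, a repressor of glucosinolate synthesis under sulfur deficiency that is also in the glucosinolate list, had log2 changes of -1.55 in npf8.4-1 and -3.75 in Col-0 with an interaction of 2.19. Without npf8.4-1 day 2 replicate 1 its npf8.4-1 change was -2.49 and its interaction 1.26, and the npf8.4-1 call was lost without npf8.4-1 day 0 replicate 1 (-1.30) or npf8.4-1 day 2 replicate 2 (-1.18). Without Col-0 day 2 replicate 1 the list's median was 0.97, and without npf8.4-1 day 2 replicate 1 it was 0.36.

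Auxin response genes mostly had a positive interaction, with 16 positive and 6 negative of 22 tested members. Of the 22, 18 rose and 2 fell in npf8.4-1, and 7 rose and 1 fell in Col-0. Of all tested genes, 32.5% rose in npf8.4-1 and 29.6% in Col-0. The median interaction was 0.54, 10 members were positive at an unadjusted p under 0.05, and 0 passed. Leaving out 1 library gave 14 to 18 rises in npf8.4-1, 7 to 11 members under 0.05 and medians of 0.38 to 0.76. The mean level was 2.31, 2.24 and 1.95 log2 CPM in npf8.4-1 at day 2 and 1.47, 1.43 and 1.4 log2 CPM in npf8.4-1 at day 0, against 2.14, 2.14 and 1.80 log2 CPM in Col-0 at day 2 and 1.89, 1.82 and 1.71 log2 CPM in Col-0 at day 0. The npf8.4-1 day 0 libraries were the lowest of the 12, and at day 2 the genotypes overlapped. SAUR15 and SAUR22, small auxin-induced growth genes, rose by 1.62 and 1.85 in npf8.4-1 and were at -0.66 and 0.34 in Col-0, which did not pass. Both have close copies, and how reads were shared among copies is unknown. In the growth and cell wall list, EXPA8, an expansin that loosens the cell wall, rose by 1.21 in npf8.4-1 and 0.51 in Col-0. XTH22, a wall-remodelling enzyme also known as a touch gene, fell by 1.26 in npf8.4-1 and was at 0.80 in Col-0, which did not pass.

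Autophagy genes, which break down cell contents for reuse, rose in both genotypes. Of 25 tested members, 19 rose in npf8.4-1 and 17 in Col-0, against 32.5% and 29.6% of all tested genes. The interaction was positive in 24 with a median of 0.26. An unadjusted p under 0.05 was seen in 4 of the 25, against 9.06% of all tested genes. That number ran from 2 without Col-0 day 0 replicate 1 to 8 without npf8.4-1 day 0 replicate 1. The interval lay within 1.5-fold in 12 of the 25 (48.0%, against 46.5% of all tested genes). ATG8F, which coats the forming autophagosome, rose by 1.27 in npf8.4-1 and 0.73 in Col-0. In the low energy list, DIN1, a marker of darkness and sugar shortage, rose by 2.06 in npf8.4-1 and was at -0.28 in Col-0, which did not pass. Its npf8.4-1 rise was 1.24 without npf8.4-1 day 2 replicate 1.

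**Figure D4:**
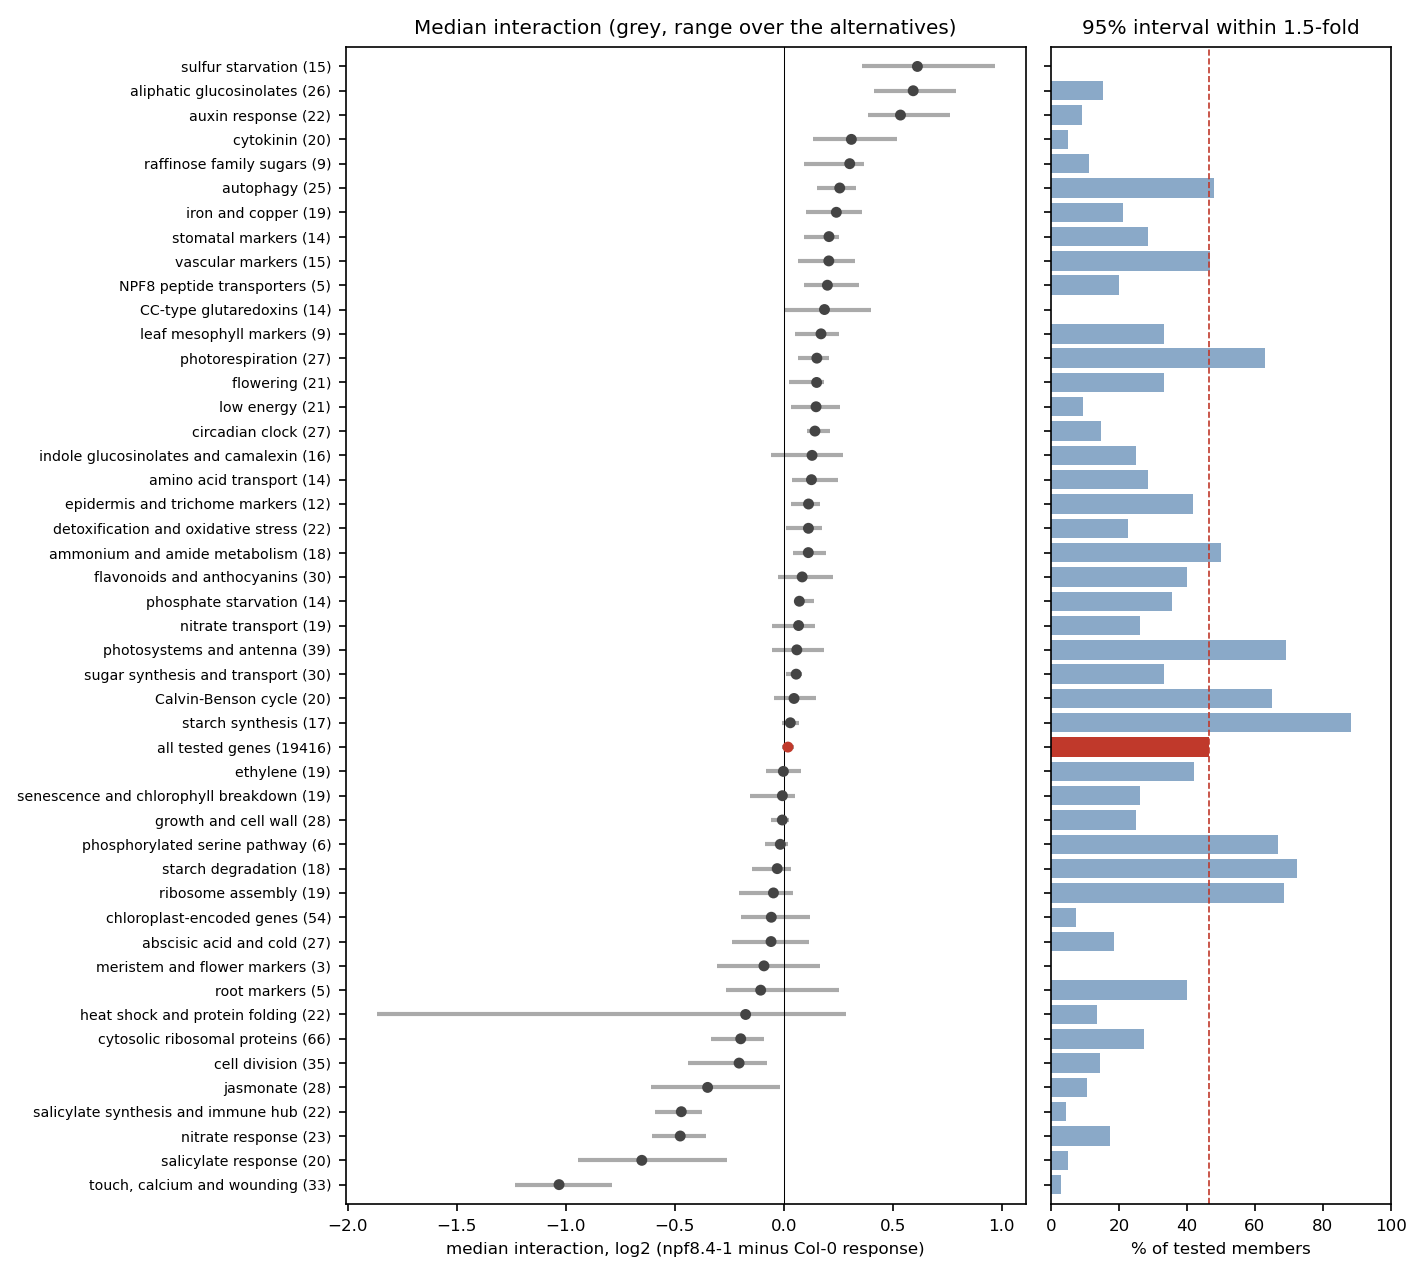
Left, the median interaction of each gene list (log2, npf8.4-1 response minus Col-0 response), with a grey line for the range over the alternative settings; right, the percent of tested members whose 95% interval lay within 1.5-fold, with a dashed line at 46.5% for all tested genes. The touch list lies furthest to the negative side at -1.03, the sulfur starvation and aliphatic glucosinolate lists furthest to the positive side at 0.61 and 0.59, and starch synthesis has 88.2% equal members.

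Starch, photosynthesis and ribosome assembly genes often had equal responses. The share of tested members with an interval within 1.5-fold was 88.2% of 17 starch synthesis genes, 72.2% of 18 starch degradation genes, 69.2% of 39 photosystem genes, 68.4% of 19 ribosome assembly genes and 65.0% of 20 Calvin-Benson genes, against 46.5% of all tested genes. These lists are well expressed, and the share was 74.8% over all tested genes at 20 to 100 CPM and 63.6% over those at 100 CPM or more, so nothing particular to the lists was shown. All 19 ribosome assembly genes fell in both genotypes, with medians of -2.14 in npf8.4-1 and -2.13 in Col-0. EMB3108, a DEAD/H-box RNA helicase, had 17.4, 17.7 and 25.4 CPM in npf8.4-1 at day 2 and 119, 126 and 127 CPM in npf8.4-1 at day 0, against 16, 19.3 and 21.7 CPM in Col-0 at day 2 and 115, 117 and 119 CPM in Col-0 at day 0. The genotypes overlapped at day 2, where all libraries were far below those of day 0, and the transcript fell by 2.63 in npf8.4-1 and 2.62 in Col-0. AT1G52930, a Brix domain protein of ribosomal RNA processing, fell by 2.59 in npf8.4-1 and 2.57 in Col-0, and CPZ, a chloroplast protein of the tRNase Z type, by 2.69 in npf8.4-1 and 2.75 in Col-0. The interval of AT1G52930 lay within 1.5-fold, which is 0.585 log2 units, only with all libraries. Its wider bound was 0.586 to 0.684 whenever 1 library was left out. Of 66 tested cytosolic ribosomal protein genes, 59 fell in npf8.4-1 and 58 in Col-0, with a median interaction of -0.20 and 27.3% equal within 1.5-fold. Of 35 cell division genes, 31 fell in each genotype, with a median interaction of -0.21, 28 negative interactions and 14.3% equal.

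Among equal rises, GLN1;1 (AT5G37600), the cytosolic glutamine synthetase that recovers ammonium in nitrogen-starved leaves, had 201, 207 and 202 CPM in npf8.4-1 at day 2 and 34.8, 37.1 and 29.8 CPM in npf8.4-1 at day 0, against 229, 223 and 266 CPM in Col-0 at day 2 and 34.6, 37 and 37.5 CPM in Col-0 at day 0. All day 2 libraries were far above those of day 0, and the Col-0 day 2 libraries were the highest. The rise was 2.59 in npf8.4-1 and 2.72 in Col-0, and the 95% interval of the interaction, -0.42 to 0.16, lay within 1.5-fold. EXO70E2, an exocyst subunit, had 39.2, 42.2 and 31.1 CPM in npf8.4-1 at day 2 and 7.67, 4.83 and 4.87 CPM in npf8.4-1 at day 0, against 40.2, 39.6 and 34.5 CPM in Col-0 at day 2 and 5.73, 5.9 and 6.07 CPM in Col-0 at day 0. It rose by 2.69 in both genotypes (interval -0.48 to 0.48), and its wider bound was 0.572 to 0.652 without 1 library, against 0.585 for 1.5-fold. PGDH2, of the phosphorylated pathway of serine synthesis, rose by 2.21 in npf8.4-1 and 2.16 in Col-0.

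Photorespiration, the pathway in which glycerate is formed, had 0 members at an unadjusted p under 0.05 and up to 3 when single libraries were left out (3 without Col-0 day 0 replicate 3). Of 27 tested genes, 17 rose and 1 fell in npf8.4-1, and 14 rose and 1 fell in Col-0. The median interaction was 0.15, and 63.0% of the genes were equal within 1.5-fold. HPR1, the peroxisomal hydroxypyruvate reductase that makes glycerate, had an interaction of 0.19 (95% interval -0.11 to 0.49), and AT1G80380, annotated as glycerate kinase, the enzyme that returns glycerate to the Calvin-Benson cycle, had 0.13 (-0.16 to 0.43). The close relatives of NPF8.4 rose in both genotypes: NPF8.1 by 1.42 in npf8.4-1 and 1.15 in Col-0, NPF8.2 by 1.59 in npf8.4-1 and 1.02 in Col-0, NPF8.3 by 0.58 in npf8.4-1 and 0.45 in Col-0, and NPF8.5 by 0.74 in npf8.4-1 and 0.54 in Col-0. Of these 4, the interval of NPF8.3 lay within 1.5-fold.

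**Figure D5:**
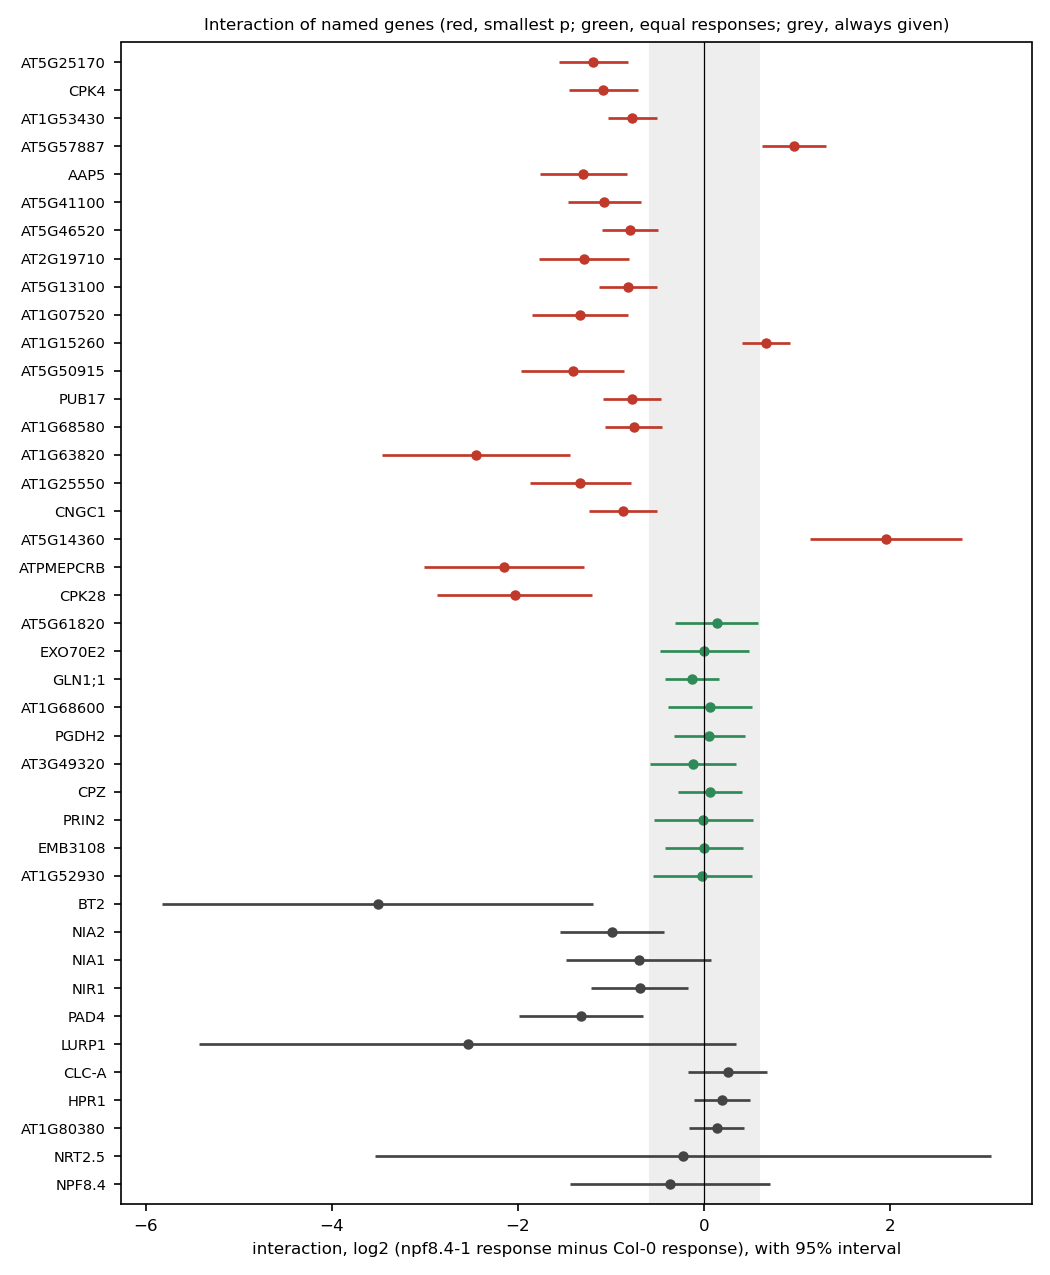
Interaction (log2, npf8.4-1 response minus Col-0 response) with its 95% interval for the 20 genes with the smallest unadjusted p, 10 genes with equal responses and 11 further genes given whatever their values; the grey band marks 1.5-fold in either direction. None of the 20 passed the adjusted threshold, and the intervals of GLN1;1, HPR1 and AT1G80380 lie within the band.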

How the data were processed

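For every library the authors deposited a table of 37242 genes with a whole-number count of exon reads and, beside it, TPM and RPKM, per the file headers. The deposited counts were tested; the deposited TPM and RPKM were not used. The library kit keeps strand, per the labels' protocols, and reads were demultiplexed with bcl2fastq 2.17.1.14 on genome build TAIR10, per the submitters' processing notes. Aligner, counting program and strand setting were not given in the sources used here, so reads of overlapping, antisense or near-identical genes may have been mixed. By locus, 36810 genes matched the RefSeq annotation and 36806 had the same start and end.

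All 12 libraries (28761674 to 34282716 reads) entered 1 edgeR quasi-likelihood fit of 4 group means (R 4.3.3, edgeR 4.0.16, limma 3.58.1), with TMM scaling, robust dispersion and the filterByExpr filter, which left 19416 genes. Benjamini-Hochberg adjustment ran over all of them, with a threshold of 0.05; p-values measure the spread between the pools of plants. The interaction, the change in each genotype and the difference at each day are contrasts of this fit, so they share libraries. Standard errors come from the quasi-likelihood statistic and give the 95% intervals. The fit was also run on simulated counts of independent libraries with no effect of replicate number, and no result given here rests on that run. No replicate pair agreed within sampling noise.

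Members and the 44 gene lists (957 entries) were chosen with earlier results of these data known. Because fewer than 10 genes passed, the naming rule took the 20 smallest unadjusted p; it also took the 5 largest rises and 5 largest falls called equal, and a set of nitrogen, photorespiration and defence genes in every case. List examples (up to 4 per list by unadjusted p, or the narrowest interval), the promoter sets and the share of larger responses were chosen after their values were seen. Alternatives were DESeq2 1.42.0, its size factors, library totals, other filters, a replicate block, a 2-fold margin and leaving out libraries. The deviations of same-numbered libraries correlated at 0.07 to 0.36 for replicate 1, 0.06 to 0.42 for replicate 3 and -0.17 to 0.02 for replicate 2. Between libraries numbered 1 and 3 of different groups the correlations were -0.44 to -0.08. The labels name no batch, so the main fit did not pair samples by number, and the replicate block was kept as an alternative. What same-numbered libraries share was not tested.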

Additional observations from a re-analysis of the deposited data

How the results depend on the processing

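The 0 interaction calls depended on the test. DESeq2 called 269 genes (53 larger, 54 smaller and 162 opposite responses in npf8.4-1). The replicate block called 43 (15 larger, 11 smaller and 17 opposite). Correlations of same-numbered libraries were all positive for replicates 1 and 3 and ran from -0.17 to 0.02 for replicate 2. Leaving out 1 library gave 0 to 6 calls (0 to 1 larger, 0 to 1 smaller and 0 to 4 opposite), the 6 without Col-0 day 2 replicate 1. Size factors, library totals and both other filters gave 0. A 2-fold margin made 8089 of the 10115 shared responses equal. The genotype difference at day 2 had 784 calls in DESeq2, 615 with the replicate block, 44 without both day 2 libraries numbered 3, and 29 to 375 without 1 library. At day 0 it had 232 in DESeq2, 173 with the block and 12 to 37 without 1 library. The share of shared responses larger in npf8.4-1 ran from 62.2% to 76.0% without 1 library and was 71.8% without both day 2 libraries numbered 3, the last an alternative chosen after seeing the data. The interaction changed sign for NPF8.4 (-0.80 to 0.17 without 1 library), NRT2.5 (-0.68 to 0.84, and 0.11 with the replicate block), PSBQ1 (-0.018 to 0.146) and ISA1 (-0.0317 to 0.0697), all with intervals that hold 0. The cause of these changes was not tested. Of the named genes' interactions, 1443 values kept direction and side of the threshold, 68 passed under an alternative (45 in DESeq2, 20 with the block and 3 without Col-0 day 2 replicate 1) and 9 changed sign. Of their depletion changes 2641 held and 76 lost the call. For the genes named by the rule as equal rises or falls, 129 intervals stayed within 1.5-fold and 61 went beyond it. Depth limits low genes most: under 1 CPM no gene could be called equal.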

Other observations

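Several lists not described above had small medians with wide spread. The low energy list had 4 positive and 4 negative members at an unadjusted p under 0.05, with BZIP1, a transcription factor of carbon starvation, falling by 1.46 in npf8.4-1 and 0.63 in Col-0. Within the jasmonate list the synthesis genes LOX4, AOC3 and OPR3 had negative interactions (LOX4 -2.22, AOC3 -1.46 and OPR3 -0.89), and none passed. The list's median genotype difference was 0.02 at day 2 and 0.59 at day 0. The fitted difference was positive in 14 of 28 members at day 2 and in 24 at day 0 (17 without npf8.4-1 day 0 replicate 1), and 0 passed at either day. CDF3, a DOF transcription factor of flowering time and nitrogen responses, rose by 0.64 in npf8.4-1 and was at -0.19 in Col-0, which did not pass, with a day 2 difference between the genotypes of 0.82. The heat shock list had a median interaction of -0.18 that was -1.87 without Col-0 day 0 replicate 1 and 0.29 without Col-0 day 2 replicate 2, so it gave no direction.

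The GAATC core, part of motifs bound by GARP-type factors, was in 60.9% of the promoters of the 23 nitrate response genes, 59.0% of the 39 photosystem genes, 46.4% of the 56 genes that DESeq2 called positive, 31.5% of the 213 it called negative and 39.2% of all tested nuclear genes. The G box CACGTG was in 20.5% of the photosystem genes, 18.2% of the 33 touch genes, 14.3% of the 56 positive genes, 11 of the 213 negative genes and 7.42% of all. These shares describe letters in 250 bases and were not tested.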
